A study of Mus musculus with 10 samples.

Results

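Malat1 and Neat1 are neighbouring long noncoding RNA genes whose transcripts stay in the nucleus. They were examined in single retinal and optic nerve cells that were collected and labelled as microglia and macrophages. The pair was picked by name, with the difference between Rbpms-positive and Rbpms-negative cells already known, and makes up 2 of the 52181 gene entries of the table, of which 16620 had at least 1 UMI. A UMI (unique molecular identifier) stands for 1 captured RNA molecule. The study used droplet 3′ single-cell RNA sequencing to profile cells from wild-type mice of the strain labelled 129S1/SvlmJ, of both sexes and 10 weeks old. The labels also carry P56. The 4 groups were injured optic nerve (libraries 1 and 3), uninjured optic nerve (libraries 2 and 4), injured retina (4 samples, deposited as the pools 1 and 2, and 3 and 4) and uninjured retina (libraries 5 and 6). Injury was an optic nerve crush at 8 weeks of age, 2 weeks before collection, and uninjured mice had no treatment. The 10 samples are thus seen as 8 libraries, 2 per group, and a pool of 2 samples counts as 1 value.

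Malat1 collects in nuclear speckles, the bodies that store splicing factors, and is among the most abundant transcripts of most mouse cells. Neat1 is the scaffold of paraspeckles, nuclear bodies built on its long form by RNA-binding proteins such as Nono and Sfpq. Both RNAs are retained in the nucleus, so their share of a cell's RNA depends on how nuclear and cytoplasmic RNA are represented. Microglia are the resident macrophages of the retina and optic nerve, and crush of the nerve damages the axons of retinal ganglion cells.

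In GRCm38, Malat1 (ENSMUSG00000092341) lies at chr19:5795690-5802672 and Neat1 (ENSMUSG00000092274) at chr19:5824708-5845478, both on the minus strand and both annotated as long intergenic noncoding RNAs. The gap between the 2 genes is 22035 bases. GENCODE M21 gives Malat1 as a single exon of 6983 bases, and Neat1 as a long form of 20771 bases in 1 exon and a short form of 3004 bases in 2 exons. The annotation also places the small genes Gm27694 and, on the opposite strand, Gm37376 inside Malat1, and Gm27533, Gm27505 and Gm28006 inside Neat1. None of these 5 has an entry in the table. Neat1 was read from 1 entry that is not split by form, so the forms of Neat1 could not be separated.

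The kit primes on runs of A, and the 3′ ends of the 2 RNAs are shown because they are what such a primer meets. Malat1 and the long form of Neat1 are known to end not in a poly(A) tail but in a genome-encoded A-rich stretch that folds with U-rich runs into a stabilising helix, after cleavage by RNase P. The 100 bases that finish with this stretch in Malat1 (chr19:5795982-5796081) and the last 100 bases of the long form of Neat1 (chr19:5824708-5824807) are printed 5′ to 3′ from the GENCODE M21 transcripts, with the runs of 10 or more bases that they share in capitals.
Malat1 A-rich end: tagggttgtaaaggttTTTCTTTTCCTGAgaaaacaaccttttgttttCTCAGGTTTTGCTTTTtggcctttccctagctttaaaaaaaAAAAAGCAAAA
Neat1 long 3prime end: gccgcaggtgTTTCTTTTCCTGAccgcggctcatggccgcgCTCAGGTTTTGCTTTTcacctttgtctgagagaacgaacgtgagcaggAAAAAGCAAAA
The 3 shared runs of 13, 16 and 11 bases stand in the same order and cover 40 of the 100 bases. The longest run of A in the Malat1 window is 12 bases, and the A run near the end of the Neat1 window is 5 bases. The hexamer AATAAA, a polyadenylation signal, is absent from the Neat1 window.

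The annotated 3′ end of Malat1 lies 292 bases beyond the A-rich stretch. Its last 60 bases (chr19:5795690-5795749) and the last 60 bases of the short form of Neat1 (chr19:5842307-5842366), which is polyadenylated, both hold AATAAA, printed in capitals.
Malat1 annotated 3prime end: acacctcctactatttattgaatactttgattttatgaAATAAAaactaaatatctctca
Neat1 short 3prime end: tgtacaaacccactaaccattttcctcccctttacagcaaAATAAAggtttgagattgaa
Which of these ends was captured cannot be read from counts per gene.

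The table holds 1168 cells, 959 from optic nerve and 209 from retina, with 8128628 UMIs. Libraries ranged from 12 to 682 cells and from 56838 to 5424786 UMIs, so single shares in the smallest libraries rest on few cells. Median UMIs per cell were 1159 and 2176.5 in injured nerve libraries 1 and 3, 2093 and 1518.5 in uninjured nerve libraries 2 and 4, 12989 and 3853 in injured retina pools 1 and 2, and 3 and 4, and 4250 and 4712 in uninjured retina libraries 5 and 6. Each of 16 microglia and macrophage markers was detected, and together they made up 2.34% to 5.01% of the UMIs of a library. Of 11 retinal ganglion cell markers, Isl1, Pou4f1, Pou4f2, Pou4f3 and Slc17a6 had no UMI. Oligodendrocyte markers reached 1.18% of UMIs in uninjured nerve library 2, and T and NK cell markers 0.0595% in injured retina pool 3 and 4. A T- and NK-like cluster held 47 cells and an oligodendrocyte-like cluster 78. A further 9 cells, of no cluster of their own, were called endothelial-like by at least 5 of 14 markers. There were 2 cell barcodes that each occurred in a pair of libraries, 4 cells in all.

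Malat1 supplied 113846 UMIs, 1.401% of the total, and was found in 939 cells (80.4%). Neat1 supplied 2469 UMIs, 0.0304% of the total, and was found in 550 cells (47.1%). In every library Malat1 was among the 8 genes with the most UMIs, and in both uninjured nerve libraries it was the first. Neat1 ranked between 140 and 928. These are shares of 3′ tags and are not corrected for transcript length.

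Before any comparison, injured retina cells fell into 2 sets. In 65 of the 166 injured retina cells, 28 of 109 in pool 1 and 2 and 37 of 57 in pool 3 and 4, there was no UMI of Malat1, of Neat1 or of the noncoding RNA Gm42418, over 268931 UMIs. Whether these zeros are counts or missing entries was not tested. If they are counts, they allow a Malat1 share of up to 0.00112% of UMIs. All of the other 101 cells had Malat1, with at least 16 UMIs in pool 1 and 2 and at least 90 in pool 3 and 4. No cell lay between 0 and 16 UMIs.

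Other long noncoding RNAs were also at 0 in the 65 cells. Of 47 other long noncoding RNA genes with at least 50 UMIs in the 101 cells, 41 (87.2%) had none in the 65. Among 3498 protein-coding genes with as many UMIs, 6 (0.172%) had none. Protein-coding genes such as Pde4d, a phosphodiesterase, stood higher in the 65, at 2867 CPM (counts scaled to a common total) against 3.42 in the 101, and so did Cmss1, at 1472 against 8.89. Of the 65 cells, 44 were in the T- and NK-like cluster and 21 in an unnamed one. Their median share of microglia and macrophage markers was 0.220% in pool 1 and 2 and 0.168% in pool 3 and 4, against 3.46% and 4.10% in the other cells. Their median depth was 4966 and 2164 UMIs, against 14459 and 10469. What sets these cells apart was not tested, and values of injured retina are given with and without them. The set was defined by Gm42418 after the values were seen, and it is exactly the set of injured retina cells at 0 Malat1, so leaving it out raises Malat1 there by construction. No test of Malat1 without these cells is therefore given for injured retina. The 65 are also all at 0 Neat1, though other injured retina cells are too. Leaving them out thus raises Neat1 there by construction, and every test of Neat1 without them carries this limit. Among uninjured retina cells, the 6 at 0 Gm42418 all had Malat1, as did all 43, with at least 22 UMIs each. Nerve cells had 0 Gm42418 UMIs in all.

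**Figure D1:**
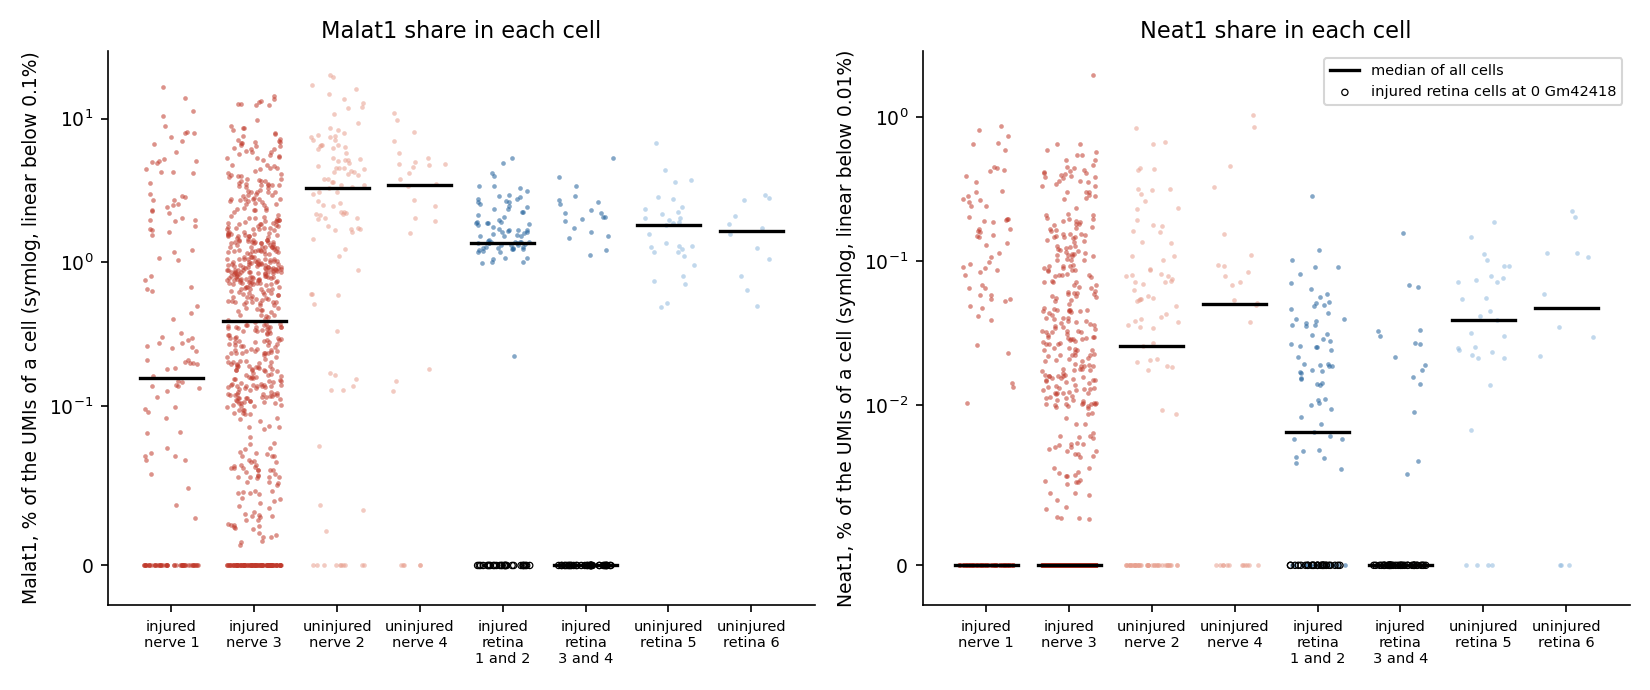
Share of UMIs of each cell given to Malat1 (left) and Neat1 (right), in percent on a symmetric log axis that is linear near 0, by library. Each point is a cell, bars are medians over all cells, and open circles are the 65 injured retina cells at 0 Gm42418. The nerve libraries spread from 0 to above 10%, with the Malat1 medians of injured nerve at 0.155% and 0.390%.

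In the optic nerve, Malat1 took 2.49% and 1.11% of UMIs in injured libraries 1 and 3, against 3.52% and 3.34% in uninjured libraries 2 and 4. The median cell held 0.155% and 0.390% in the injured libraries, against 3.30% and 3.47% in the uninjured ones. The mean of ln(1 + 10000 × UMIs/total) over cells, written mean ln value below, was 2.86 and 3.42 in injured libraries, against 5.01 and 4.62 in uninjured ones. Both injured libraries were below both uninjured libraries on each of the 3 scales, which rest on the same cells. How many of all genes separate in this way was not counted. Malat1 fell after injury by 1.68 ± 0.36 in mean ln value (limma over 8 libraries, SE, Benjamini-Hochberg adjusted p = 0.0393). In this comparison 0.603% of 5308 genes were called, and 0.226% were called lower. That is 32 genes, which became 10 without uninjured library 2, 11 without injured library 3 and 68 without injured library 1.

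The call for Malat1 in nerve depended on the scale and on single libraries. On summed UMIs, where deep cells weigh more, the difference was -0.74 ± 0.36 on the log2 scale (edgeR's quasi-likelihood test, adjusted p = 0.416), and with log2(CPM + 1) it was -1.03 (limma adjusted p = 0.550). The limma call was lost without injured nerve library 1 (adjusted p = 0.0639), uninjured library 2 (0.275) or uninjured library 4 (0.115). With the T- and NK-like and the oligodendrocyte-like clusters and the 9 endothelial-like cells left out, the call was kept (limma adjusted p = 0.0111). The 65 retina cells enter this difference only through the shared estimate of the spread, and without them 0.678% of genes were called and 0.264% lower. All p-values describe the spread between libraries, and no label says that each came from a separate animal.

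Neat1 in nerve took 0.0957% and 0.0257% of UMIs in injured libraries 1 and 3, against 0.0583% and 0.0861% in uninjured libraries 2 and 4. Injured library 1 was the highest of the 4 and injured library 3 the lowest, so the groups overlapped on this scale. In mean ln value the injured libraries stood at 1.137 and 0.759, below 1.33 and 1.499 in the uninjured ones. The difference of -0.46 ± 0.22 did not pass the test (limma adjusted p = 0.581).

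In the retina, Malat1 took 1.58% and 1.42% of UMIs in injured pools 1 and 2, and 3 and 4, against 1.63% and 1.68% in uninjured libraries 5 and 6. Without the 65 cells the injured pools stood at 1.78% and 2.15%, above both uninjured libraries. The log2 difference was -0.11 ± 0.30 with all cells (edgeR's quasi-likelihood test, adjusted p = 0.821) and did not pass the test. Without the 65 it was 0.36. The sign turned with the cells used, and with all cells also without injured pool 3 and 4 (0.12) or uninjured library 5 (0.15). On the mean ln scale the 65 cells at 0 weighed more: the injured pools had 3.83 and 1.89, against 5.10 and 4.98 in the uninjured libraries, a difference of -2.18 that limma called (adjusted p = 0.000669). Without them the injured pools had 5.16 and 5.39, and the difference was 0.23.

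Neat1 was lower in injured retina. It took 0.0232% and 0.0135% of UMIs in the injured pools, against 0.0476% and 0.0651% in the uninjured libraries, and without the 65 cells the pools stood at 0.0262% and 0.0204%. Either way, both injured values were below both uninjured ones, and the share of all genes with such an order was not counted. The shares rest on 329 and 42 Neat1 UMIs in the injured pools, against 68 and 37 in uninjured libraries 5 and 6. Without the 65 cells, median depth was 14459 and 10469 UMIs in the pools, against 4250 and 4712 in these libraries. The part of depth in the lower Neat1 share was not tested. Neat1 fell by 1.51 ± 0.31 on the log2 scale with all cells (edgeR's quasi-likelihood test, adjusted p = 0.00704) and by 1.11 ± 0.28 without the 65 (edgeR adjusted p = 0.0227). In the retina comparison 19.7% of 3312 genes were called, with 9.72% lower and 9.99% higher. Without the 65 cells 20.2% of 2442 were called, and 9.87% lower. DESeq2 gave -1.54 with all cells (adjusted p = 0.00566). The call was lost without injured pool 3 and 4 (-1.07, edgeR adjusted p = 0.0799), and on the mean ln scale without the 65 cells (-0.57, limma adjusted p = 0.0651).

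Cells of injured retina pool 1 and 2 were deeper than those of the uninjured retina, which bears on the share of cells with a UMI. A Neat1 UMI was found in 58.7% and 28.1% of cells of the injured pools, against 87.1% and 75% in the uninjured libraries. Without the 65 cells the pools stood at 79.0% and 80.0%, between the 2 uninjured values. Expected shares at 1000 UMIs per cell were 20.7% and 21.6% in the injured pools without the 65, against 39.7% and 44.3% in the uninjured libraries. In nerve they were 44.3% and 21.0% in injured libraries 1 and 3, against 37.7% and 49.0% in uninjured libraries 2 and 4. This reckoning leaves out 66 and 182 cells of the injured nerve libraries and 19 and 9 of the uninjured ones, which had fewer than 1000 UMIs, and 1 cell of uninjured retina library 5.

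**Figure D2:**
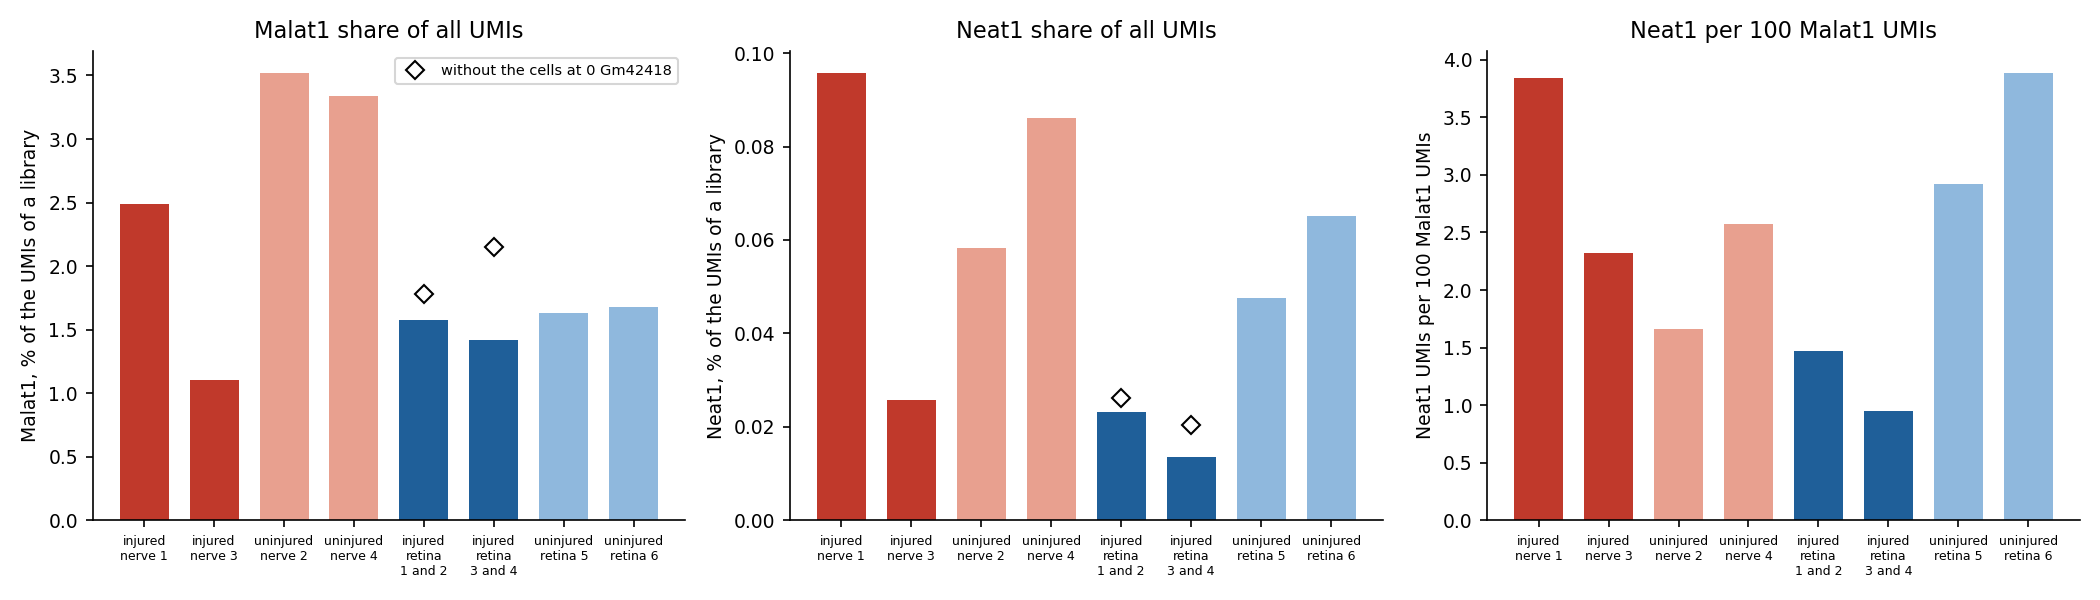
Malat1 (left) and Neat1 (middle) as percent of all UMIs of a library, and Neat1 UMIs per 100 Malat1 UMIs (right). Bars are single libraries, so they carry no error, and diamonds show injured retina without the 65 cells. Both uninjured nerve libraries are highest for Malat1, and the bars of both injured retina pools are lowest for Neat1 and for the ratio.

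Because both RNAs are nuclear, the number of Neat1 UMIs per 100 Malat1 UMIs was compared as well. This ratio is the same with and without the 65 cells. It was 3.84 (95% interval 3.42 to 4.30, counting error only) and 2.32 (2.20 to 2.45) in injured nerve libraries 1 and 3, against 1.66 (1.44 to 1.90) and 2.58 (2.02 to 3.24) in uninjured nerve libraries 2 and 4. The 2 injured pools of the retina had 1.47 (1.31 to 1.64) and 0.95 (0.684 to 1.29), against 2.92 (2.26 to 3.71) and 3.88 (2.72 to 5.39) in the uninjured retina libraries. Nerve groups overlapped, whereas both injured retina pools lay below both uninjured ones. The intervals do not cover the spread between libraries, and those of the 2 injured nerve libraries did not meet either. Group means were 3.08 ± 1.07 and 2.12 ± 0.649 in injured and uninjured nerve, and 1.21 ± 0.367 and 3.40 ± 0.682 in injured and uninjured retina (SD, n = 2 each).

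Injury was also tested over both tissues by exact permutation within tissue. The design has 36 assignments, so the smallest two-sided p is 0.0556 and no result can pass 0.05. The Malat1 share was lower by 0.893 percentage points in injured libraries (exact permutation p = 0.0556), and the difference was -0.660 points without the 65 cells. With all cells it was -1.63 points in nerve and -0.156 in retina, so the joint value came mostly from nerve. With T- and NK-like, oligodendrocyte-like and endothelial-like cells left out it was -0.879 (exact permutation p = 0.222), with nerve at -1.81 and retina at 0.053. The Neat1 share differed by -0.0248 points (exact permutation p = 0.278), and by -0.0223 points without the 65 cells (p = 0.278). Neat1 per 100 Malat1 UMIs differed by -0.613 (exact permutation p = 0.444), with nerve at 0.965 and retina at -2.19. The share of cells with a Neat1 UMI differed by -26.3 points with all cells (exact permutation p = 0.0556) and by -8.29 without the 65 (p = 0.167). The 65 have no Neat1 UMI, so leaving them out raises this share in injured retina by construction. These 4 measures form the family, and no adjusted value is given because none could pass.

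The 2 injury effects were compared directly as an interaction of injury and tissue. For Malat1 the effect in nerve minus that in retina was 0.50 ± 0.51 in mean ln value with all cells (limma adjusted p = 0.585). Without the 65 cells it was -1.91, with all cells at 0 Malat1 gone from injured retina but 164 such cells kept in nerve. With all cells it was 1.47 without injured retina pool 1 and 2 (limma adjusted p = 0.00709) and -0.47 without pool 3 and 4. Here 5.65% of genes were called with all cells, and 4.52% without the 65, with 3.47% of genes in the negative direction. On summed UMIs the Malat1 interaction was -0.67 with all cells (edgeR adjusted p = 0.520) and -1.15 without the 65. For Neat1 the interaction was 0.56 ± 0.31 (limma adjusted p = 0.289), and 0.10 ± 0.28 without the 65 cells (limma adjusted p = 0.874).

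Between tissues, Malat1 of injured nerve and injured retina differed by 0.28 ± 0.36 in mean ln value with all cells (limma adjusted p = 0.663) and by -2.14 without the 65. With all cells it was 1.25 without injured retina pool 1 and 2 (limma adjusted p = 0.00333), -0.69 without pool 3 and 4 and near 0 without injured nerve library 3. In that comparison 13.5% of genes were called with all cells, 12.7% of genes lower in nerve, and without the 65 cells 16.5%, with 15.9% lower in nerve. On summed UMIs without the 65 cells the Malat1 difference was -0.11. Neat1 of injured nerve and injured retina differed by 0.39 ± 0.22 (limma adjusted p = 0.244), and by -0.07 ± 0.20 without the 65 (limma adjusted p = 0.842). On summed UMIs the Neat1 difference was 1.74 ± 0.50 log2 units (edgeR adjusted p = 0.0532), and 1.36 ± 0.49 without the 65 (edgeR adjusted p = 0.130), so its sign without these cells depended on the scale. In uninjured mice, nerve and retina differed by -0.22 ± 0.36 for Malat1 (limma adjusted p = 0.738) and by -0.17 ± 0.22 for Neat1 (limma adjusted p = 0.668), with 10.2% of genes called, 8.27% lower and 1.9% higher in nerve. On summed UMIs uninjured nerve stood 1.01 log2 units above uninjured retina in Malat1 (edgeR adjusted p = 0.156).

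The spread of Malat1 over nerve cells was wide. A bound of 0 to 3 Malat1 UMIs was chosen after the values were seen. Under it, 458 of 959 nerve cells (47.8%) held few or no Malat1 UMIs. This pooled share leans on injured library 3, which gave 682 of the 959 cells. By library, such cells were 97 of 146 (66.4%) and 335 of 682 (49.1%) in injured libraries 1 and 3, against 18 of 103 (17.5%) and 8 of 28 (28.6%) in uninjured libraries 2 and 4. Both injured shares were above both uninjured ones. In injured retina the only such cells were the 65 at 0, and in uninjured libraries 5 and 6 there were 0 of 31 and 0 of 12, which allows shares of up to 9.68% and 25%. Over the nerve, 164 cells had 0 Malat1 UMIs, 156 had 1, 97 had 2 and 41 had 3.

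Cells with few Malat1 UMIs were mostly shallow, in part by construction. The bound is on UMIs and not on share, so shallow cells meet it more easily. A Neat1 UMI is also less likely to be found at low depth. Nerve cells with 0 to 3 Malat1 UMIs had a median of 999 UMIs in total and a highest of 12402, against a median of 5564 in the other nerve cells. Their median Malat1 share was 0.0638%, against 1.71%. The next shares are of UMIs other than those of the pair. Ribosomal protein genes took a median of 17.7% in these cells, against 10.8% in the others. The 13 mitochondrially encoded protein genes took 0.637%, against 3.29%, and microglia and macrophage markers 4.46%, against 3.43%. These medians pool all nerve libraries. In uninjured library 4 the mitochondrial share was higher in cells with few Malat1 UMIs (9.74% against 3.49%). In uninjured library 2 the marker share was lower in such cells (1.25% against 1.85%). Otherwise the order within each library was the pooled one, as it was for ribosomal protein genes in every library. Neat1 was found in 50 of the 458 cells (10.9%), against 384 (76.6%) of the other nerve cells. Of the 458, 421 were in a single unnamed cluster of 455 cells with a median of 1007 UMIs, led by Mbp, the myelin basic protein gene, Cxcl13, a chemokine gene, and Ccl6. The part of depth and of cell state in these low values was not tested.

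Cells of each library were put into 4 bins of equal size by total UMIs. In injured nerve library 1 the Malat1 share of summed UMIs was 0.225%, 0.306%, 1.504% and 3.23% from the shallowest to the deepest bin. In injured nerve library 3 it was 0.580%, 1.46%, 1.73% and 0.978%. In uninjured nerve library 2 it was 3.82%, 5.59%, 4.38% and 2.81%. Uninjured nerve library 4, with 7 cells per bin, had 0.0675%, 4.62%, 4.56% and 3.11%. Median total UMIs of the shallowest bins were 512 and 696 in injured libraries 1 and 3, against 861 and 652 in uninjured libraries 2 and 4, so the bins differed in depth, and the lowest share of all was in uninjured library 4. In the retina, without the 65 cells, injured pool 1 and 2 had 2.36%, 1.93%, 1.68% and 1.51%, and injured pool 3 and 4 had 2.40%, 2.54%, 2.38% and 1.67%. Uninjured library 5 had 2.50%, 1.86%, 1.92% and 1.02%, and uninjured library 6, with 3 cells per bin, 1.99%, 2.19%, 1.03% and 1.73%. The deepest bin was the lowest for Malat1 in 3 of the 4 retina libraries, library 6 being the exception. From the shallowest to the deepest bin, Neat1 went from 0.0657% to 0.0350% in library 5 and from 0.101% to 0.0352% in library 6. It went from 0.0275% to 0.0268% in pool 1 and 2, and from 0.0312% to 0.0103% in pool 3 and 4. Median depth was 10313 and 5910 UMIs in the shallowest bins of the pools, against 6691.5 and 5740 in the deepest bins of libraries 5 and 6.

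**Figure D3:**
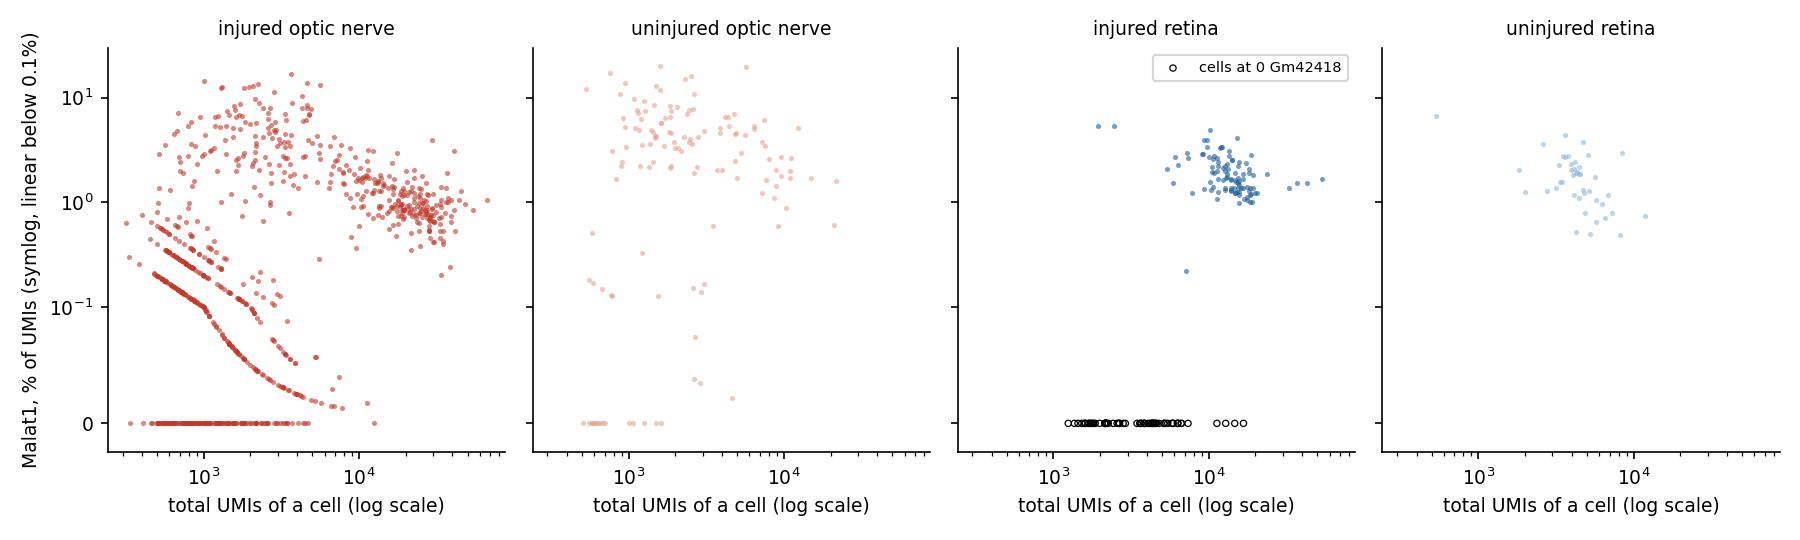
Malat1 share of each cell (percent of UMIs, symmetric log axis, linear below 0.1%) against the total UMIs of the cell (log axis), by group. Each point is a cell and open circles are the 65 injured retina cells at 0 Gm42418. Curved rows in injured nerve are cells with 1, 2 or 3 Malat1 UMIs, and they reach well beyond 1000 total UMIs.

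Clusters of cells differed widely in Malat1, and these are descriptions, since Malat1 was among the genes clustered. In the cluster of 455 shallow cells Malat1 took 0.0887% and 0.125% of UMIs in injured nerve libraries 1 and 3, against 0.564% and 0.0526% in uninjured libraries 2 and 4. In the cluster led by Lyst and Dennd4a it took 4.40% and 3.57% in the injured libraries, against 5.29% and 5.27% in the uninjured ones. In the cluster led by Gpnmb, a lysosomal glycoprotein gene, and Apoc1, with Spp1 among its leading genes, Malat1 took 2.28% and 0.961% in injured libraries 1 and 3. Border macrophage-like cells, marked by Mrc1, F13a1 and Stab1, had 2.43% and 2.40% in the injured libraries, against 2.89% in uninjured library 2. Oligodendrocyte-like cells had 7.98% and 3.54% in the injured libraries, against 6.35% in uninjured library 2. The median oligodendrocyte-like cell had 3.59% and 0.169% in the injured libraries, against 4.30%, so that in injured library 3 the summed share lay far above that of the median cell. In the Lyst and Dennd4a cluster and in the border macrophage-like cluster, both injured libraries were below each uninjured library given. The first had 14 and 79 cells in injured libraries 1 and 3, against 14 and 8 in uninjured libraries 2 and 4. The second had 9 and 25, against 44 in the only uninjured library given. The oligodendrocyte-like cells and the cluster of 455 cells did not have this order. The share of all genes with such an order was not counted.

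Neat1 followed Malat1 across cells of the same library. The Spearman rho between their shares was 0.621 and 0.609 in injured nerve libraries 1 and 3, against 0.478 and 0.546 in uninjured libraries 2 and 4. It was 0.157 and 0.716 in the injured retina pools without the 65 cells, against 0.220 and 0.289 in the uninjured retina libraries. The value was above 0 in 8 of 8 libraries. With the 65 cells, which are at 0 for both, the pools had 0.550 and 0.896. The points within a library share depth and capture, and cells are not replicates, so no p is given.

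Against total UMIs, Malat1 had no common direction. The rho was 0.444 and 0.384 in injured nerve libraries 1 and 3, against -0.00188 and 0.441 in uninjured nerve libraries 2 and 4. It was -0.407 and -0.435 in the injured retina pools without the 65 cells, against -0.596 and -0.182 in the uninjured retina libraries. Against the share of 83 cytoplasmic ribosomal protein genes, in contrast, it was below 0 in 8 of 8 libraries, from -0.804 to -0.193, and that of Neat1 from -0.667 to -0.119. The ribosomal share was taken of the UMIs other than those of the pair, so Malat1 and Neat1 do not enter its total. What links these shares was not tested.

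Protein genes of the 2 nuclear bodies were set beside the RNAs. Over cells, the summed share of 18 nuclear speckle genes had a rho with Malat1 above 0 in 8 of 8 libraries, from 0.227 to 0.639, and that of 16 paraspeckle genes from 0.0301 to 0.442, again in 8 of 8. For Neat1 the speckle genes were above 0 in 7 of 8 libraries. Among the genes with the lowest rho with Malat1 in injured nerve library 3 were Tmsb4x, which encodes the actin-binding peptide thymosin beta 4, Gapdh, a glycolysis gene, and Eef1a1, an elongation factor gene. Counting that library, by which they were picked, Tmsb4x and Eef1a1 were below 0 in 8 of 8 libraries and Gapdh in 6. The genes most like Malat1 over the 682 cells of injured nerve library 3, among 384 widely detected genes, were Son (rho 0.639), which encodes a core protein of nuclear speckles, Macf1 (0.636), mt-Co2 (0.626), mt-Co1 (0.622) and Rbm39 (0.616), a splicing factor gene. The gene most like Neat1 there was Malat1 (0.607), followed by mt-Atp6 (0.493).

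**Figure D4:**
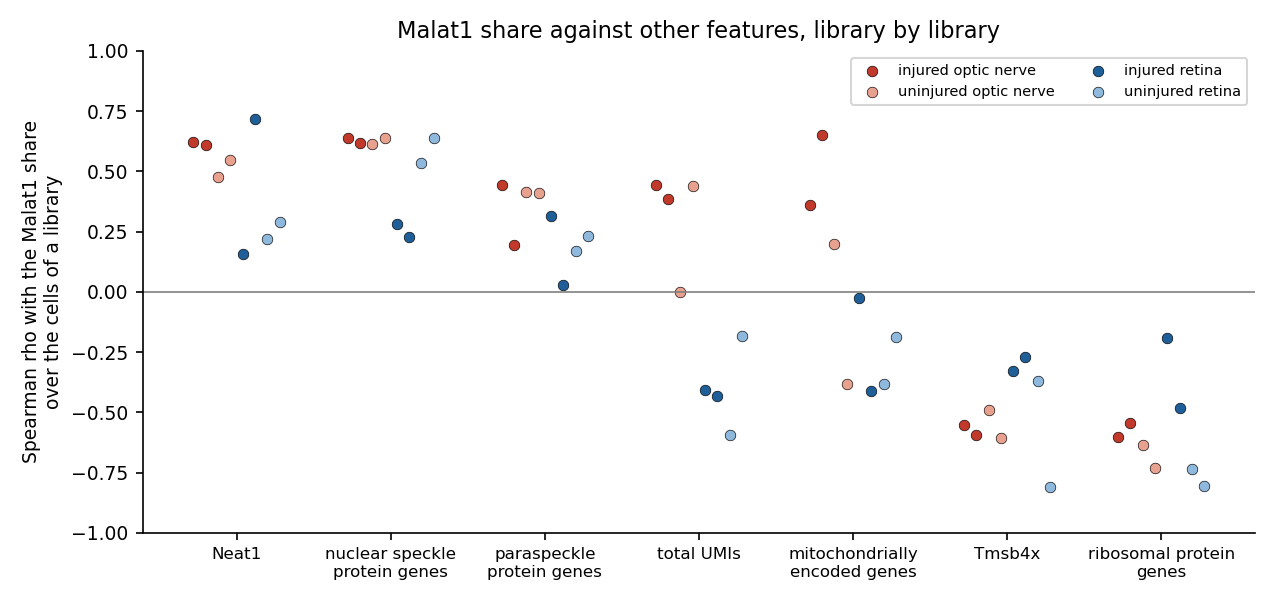
Spearman rho over cells between the Malat1 share and 7 other features, with 1 point per library, without the 65 injured retina cells. Neat1 and both protein lists are above 0 in 8 of 8 libraries, Tmsb4x and ribosomal protein genes below 0 in 8 of 8, and total UMIs and mitochondrially encoded genes on both sides. Tmsb4x was picked as the lowest gene in injured nerve library 3.

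Across libraries the order was another. By Pearson r of log2(CPM + 1) over the 8 libraries, among 5308 genes, the genes most like Malat1 included 5031425E22Rik (0.962), Pxn (0.928), Dpy19l1 (0.925) and Kcnq1ot1 (0.920), an imprinted long noncoding RNA. Neat1 stood at rank 169 with r 0.718, and without the 65 cells at rank 461 with r 0.560. Without the 65 cells 5031425E22Rik stayed first (0.958) and Tra2a, a splicing regulator gene of the speckle list, stood at rank 4 (0.911). The genes most like Neat1 were Tnfrsf1a (0.961), a receptor gene for tumour necrosis factor, Leng8 (0.934), Hdac5 (0.931), Dnajb2 (0.927) and H1f0 (0.926). These are 8 libraries in 4 groups, and the values describe them only.

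After injury in nerve, 0 of 18 nuclear speckle genes and 0 of 15 paraspeckle genes tested passed (limma), beside 0.603% of all genes. At an unadjusted p under 0.05 there were 4 speckle genes, Son, Tra2a, Tra2b and Srsf2, and 2 paraspeckle genes, Hnrnph3 among them, beside 455 of all 5308 genes. The median difference was -0.20 over the speckle genes and -0.06 over the paraspeckle genes, beside -0.02 over all genes tested. Son had -0.81 ± 0.24 (limma adjusted p = 0.218), Tra2a -0.53 (0.220) and Tra2b -0.70 (0.294). Of the 13 mitochondrially encoded protein genes 5 fell, beside 0.226% of all genes called lower. Among them were mt-Atp6 at -1.29 ± 0.19 and mt-Co1 at -1.26 ± 0.18 (limma adjusted p = 0.00273 for both) and mt-Nd1 at -1.66 ± 0.28 (limma adjusted p = 0.00731). The median of the 13 was -0.96, with 11 below 0 and 2 above. On summed UMIs the groups overlapped for mt-Atp6, at 11054 and 5307 CPM in injured libraries 1 and 3, against 15529 and 7456 CPM in uninjured libraries 2 and 4. The part of RNA quality in these values and in Malat1 was not tested.

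In the retina 2 of 16 tested speckle genes fell, Srsf2 with -1.94 ± 0.27 on the log2 scale (edgeR's quasi-likelihood test, adjusted p = 0.000739) and Srsf6 with -1.39 (adjusted p = 0.0125), both encoding SR splicing factors, beside 9.72% of all genes called lower. They also fell without the 65 cells, with -1.82 (edgeR adjusted p = 0.00205) and -1.21 (0.0276). Pnn, a speckle protein gene, rose by 1.52 (edgeR adjusted p = 0.0464), a call lost without the 65 cells (adjusted p = 0.0557). Of 13 tested paraspeckle genes 1 fell, Hnrnpk with -0.94 (edgeR adjusted p = 0.0275), and 0 of 10 passed without the 65 cells, where Hnrnpk had an adjusted p of 0.0650. These counts are close to the shares over all genes. The median was -0.18 over the speckle genes and 0.25 over the paraspeckle genes, beside 0.07 over all. Mitochondrially encoded genes went both ways, with 2 of 13 higher and 3 lower.

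Between injured nerve and injured retina, 7 of 18 speckle genes were lower in nerve, led by Tra2b at -1.47 ± 0.23 (limma adjusted p = 0.00103), Srsf5 at -1.08 (0.0102) and Srsf7 at -0.61 (0.0194), beside 12.7% of all genes. Without the 65 cells 10 were lower, beside 15.9% of all genes, Son among them at -0.92 (limma adjusted p = 0.00752). Of 15 paraspeckle genes 2 were lower in nerve, among them Hnrnpa1 (-0.74, limma adjusted p = 0.00848), a share near that over all genes. In uninjured mice 4 speckle genes, Srsf2, Srsf5, Srsf6 and Srsf7, and 3 paraspeckle genes, Nudt21, Hnrnpk and Ewsr1, were lower in nerve (limma), of 18 and 15 tested, beside 8.27% of all genes.

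Other long noncoding RNAs could be followed only in part. Of 21 listed, Gas5, Snhg1, Snhg3, Snhg5, Snhg8, Dleu2 and Firre had UMIs only in the injured retina pools and were listed at 0 in the other 6 libraries. Gas5, a host gene of small nucleolar RNAs, stood at 337 and 286 CPM in the pools. Peg13 and Rian had UMIs only in injured retina pool 1 and 2, at 4.22 and 0.704 CPM. Whether a 0 of these genes is a count or a missing entry was not tested. Kcnq1ot1 had 116 and 52.9 CPM in injured nerve libraries 1 and 3, against 148 and 140 in uninjured libraries 2 and 4. It had 40.8 and 45.03 in the injured retina pools, against 49.0 and 52.8 in uninjured retina. Tug1 had 61.0 and 15.5 in injured nerve, against 61.4 and 81.4 in uninjured nerve. None of the 5 tested in nerve passed after injury (limma, 2 at an unadjusted p under 0.05, Tug1 and Kcnq1ot1). Tug1 stood at 25.3 and 22.5 in the injured retina pools and was listed at 0 in both uninjured retina libraries, so no difference from uninjured retina is given.

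Few of the genes around the pair could be tested, and 0 passed in any comparison. Of 16 gene symbols with any part within 100 kb of Malat1 or Neat1, 4 were abundant enough for the limma fits, Dpf2, Frmd8 and Ehbp1l1 among them, and 0 were called in the 4 limma comparisons or in retina by edgeR, where only Ehbp1l1 was tested (-1.004, edgeR adjusted p = 0.171). Over all genes, 0.603% to 13.5% were called in the limma comparisons and 19.7% in retina, so 0 among so few does not stand apart. With all cells, 2 had an unadjusted p under 0.05 in 1 of these comparisons (limma), both in uninjured nerve against uninjured retina, with Ehbp1l1 at -0.21. There 1415 of all 5308 genes had such a p.

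The study's authors divided cells into 72 Rbpms-positive and 1096 Rbpms-negative cells by the RNA of Rbpms, a marker gene of retinal ganglion cells. Malat1 was selected with this contrast known, so its values are given as a description with no test. The mean ln value of Malat1 was 4.82 in 38 positive cells and 3.33 in 644 negative cells of injured nerve library 3. It was 5.58 in 6 positive and 4.98 in 97 negative cells of uninjured nerve library 2, 4.93 in 16 positive and 3.64 in 93 negative cells of injured retina pool 1 and 2, and 5.13 in 5 positive and 5.10 in 26 negative cells of uninjured retina library 5. The difference ranged from 0.0372 to 1.48 over these libraries, with a mean of 0.85 ± 0.66 (SD, 4 libraries). A library was left out where either class had fewer than 5 cells. With this bound lowered to 2 cells, 7 libraries could be used, and positive cells were higher in 6 of them. The mean was then 0.60 ± 0.69 (SD). Uninjured retina library 6 went the other way, at -0.53 with 2 positive cells.

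These differences moved with depth and with the 65 cells. Positive cells of injured nerve library 3 had a median of 18202.5 UMIs, against 2110.5 in negative cells, and those of injured retina pool 1 and 2 had 18311, against 12418. With negative cells matched on total UMIs the mean difference was 0.43, and the 4 libraries had 0.80, 0.58, 0.53 and -0.18 in the order above. All 28 of the cells at 0 Gm42418 in injured retina pool 1 and 2 were Rbpms-negative, and without them its negative cells had 5.21, so that positive cells were lower by 0.28. Without these cells the mean was 0.46 ± 0.77, and matched on depth as well 0.27. By summed UMIs, positive cells were higher by 0.18 percentage points, with 2 of 4 libraries above 0.

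Neat1 in positive and negative cells was 1.12 and 0.737 in injured nerve library 3, 1.51 and 1.32 in uninjured nerve library 2, 1.12 and 0.685 in injured retina pool 1 and 2, and 1.37 and 1.56 in uninjured retina library 5. Positive cells were higher in 3 of 4 libraries, with a mean difference of 0.21 ± 0.28 in mean ln value, 0.02 after matching on depth and 0.13 without the cells at 0 Gm42418. With the bound lowered to 2 cells, positive cells were higher in 5 of 7 libraries, with a mean difference of 0.31 ± 0.41 (SD). The differences of Neat1 were thus within the spread between libraries.

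**Figure D5:**
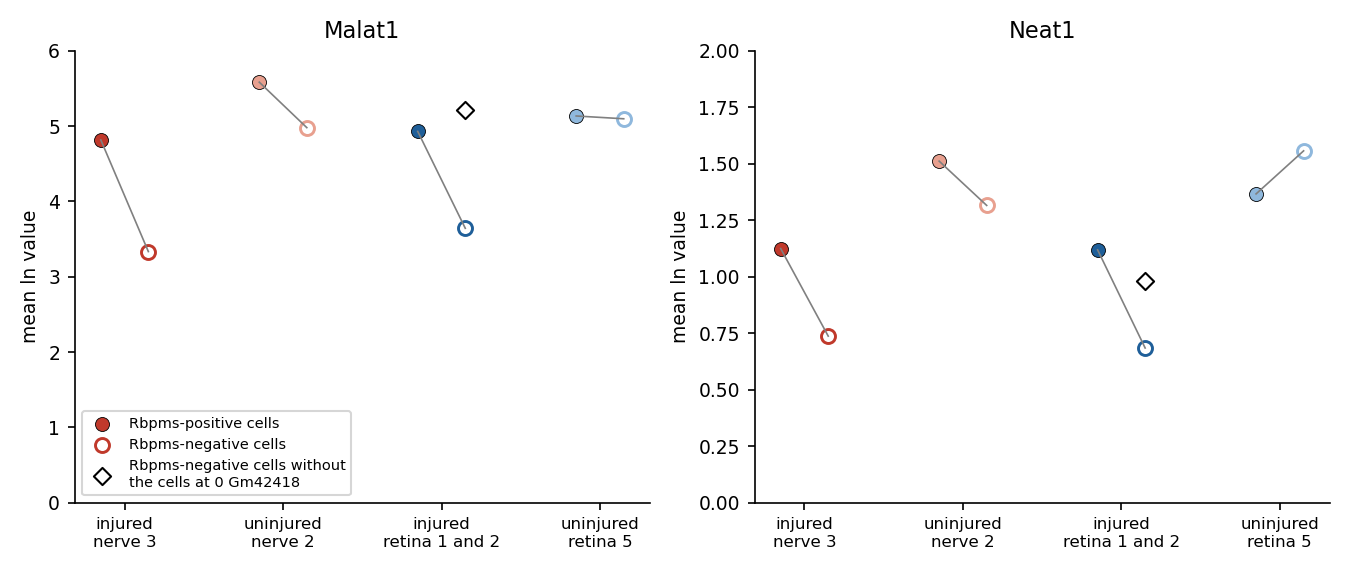
Mean ln value of Malat1 (left) and Neat1 (right) in Rbpms-positive cells (filled) and Rbpms-negative cells (open), joined within each of 4 libraries. Diamonds show the negative cells of injured retina pool 1 and 2 without those at 0 Gm42418. The Malat1 line of that pool turns from 4.93 against 3.64 to 4.93 against 5.21.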

How the data were processed

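The deposited table holds cells of the 4 groups in columns. Per the labels, cells were captured with the v2 droplet kit, and cells were filtered on genes per cell; the deposited cells have 205 to 6231 genes. The submitters' processing notes name bcl2fastq 2.17.1.14, Cell Ranger 1.3, Seurat 4.0.3 and the build mm10, and the labels' design text names harmony. From the values, the deposited retina columns are UMI counts and the deposited optic nerve columns are natural log values, ln(1 + 10000 × UMIs/total). Inverting them gave whole UMIs within 0.01 for 100% of 1374534 values above 0. Counting strand is not given in the sources used here. Cells were matched to libraries by the table's own header lines.

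UMIs were summed per library. For injury in the retina, counts of 4 libraries were fitted with edgeR 4.0.16 (quasi-likelihood, TMM, filterByExpr). The other comparisons used limma 3.58.1 with trend on mean ln values of 8 libraries, for genes detected in 10% of cells or more, and their differences are natural log units. P-values were adjusted by Benjamini-Hochberg over all genes tested, with 0.05 as the threshold. The fits were tested on simulated data. Clusters came from scanpy 1.11.5 (Leiden, resolution 0.5) and were named from marker lists, and no doublet caller was run. Intervals are exact binomial (Clopper-Pearson) at 95% and cover counting error only, as does the limit from 0 (3 counts). Gene symbols and transcripts came from GENCODE M21, which matched 31394 of 31833 Ensembl entries.

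The genes named are the pair, genes within 100 kb, the members of 4 lists (nuclear speckle, paraspeckle, other long noncoding, mitochondrially encoded) with the smallest p, and the genes most like each of the pair. Kinds of cell are described by marker lists. The pair, the lists and the bounds were chosen with earlier results of these data known. Alternatives were DESeq2 1.42.0, edgeR for all 8 libraries, log2(CPM + 1), no filter, totals without the pair, fewer cell classes and leaving out each library. Leaving out the injured retina cells at 0 Gm42418 was added after the values were seen. A few genes that the rule for named genes would give are not reported here.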

Additional observations from a re-analysis of the deposited data

Results flagged for a closer look

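The interaction of injury and tissue for Malat1, without the 65 injured retina cells at 0 Gm42418, was -1.91 in mean ln value, and it is listed because this value passed the threshold with those cells left out. The injury effect was -1.68 in nerve and 0.23 in retina in that fit. With all cells the interaction was 0.50 (limma adjusted p = 0.585), and on summed UMIs without the 65 cells it was -1.15. The 65 cells are all the injured retina cells without a Malat1 UMI, while 164 nerve cells without one were kept, so the removal was tied to Malat1 itself in one tissue and the value does not show that the tissues differed. With 2 libraries per group no group was large enough to be searched for a single outlying library.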

How the results depend on the processing

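Leaving out the 65 injured retina cells turned the sign of Malat1 in 3 comparisons (log2 for retina, mean ln otherwise): injury in retina 0.36 (0.38 also without the other cell classes, 0.23 by limma), injured nerve against injured retina -2.14 (-2.25; -0.11 by edgeR), and interaction -1.91 (-1.89; -1.15 by edgeR). Neat1 of injured nerve against injured retina became -0.067 and -0.17. Without the other cell classes alone, Malat1 had 0.13 in retina, -0.95 between injured tissues and -0.60 as interaction. edgeR on 8 libraries gave Malat1 -0.74 in nerve (-0.76 without the 65), -0.67 as interaction and 1.01 and 1.04 between uninjured tissues, where Neat1 had 0.31 and 0.35. Malat1 in nerve also missed the threshold without a filter (-1.68) and with log2(CPM + 1) (-1.03). In retina Malat1 had 0.091 without a filter and -2.18 by limma, and Neat1 -0.57 by limma without the 65. By summed UMIs Neat1 in Rbpms-positive cells was lower by 0.0071 points (-0.0071; -0.0080 without the 65). Counts of genes called moved to 383, 233 and 440 for injured nerve against retina (714 before), by edgeR, edgeR without the 65 and no filter, and to 53, 1 and 6 for nerve (32), by edgeR, no filter and log2(CPM + 1). They moved to 341 by DESeq2 in retina (653), to 74, 63, 29 and 172 for the interaction (300), by edgeR, edgeR without the 65, no filter, and fewer cells of both kinds, and to 124 and 110 by edgeR between uninjured tissues (540). The causes were not tested.

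Leaving out 1 library at a time, Malat1 ran from -1.96 to -1.40 in nerve, -0.18 to 0.15 in retina, -0.47 to 1.47 as interaction, -0.69 to 1.25 between injured and -0.42 to -0.03 between uninjured tissues. Neat1 ran from -0.65 to -0.28, -1.92 to -1.07, 0.37 to 0.76, 0.20 to 0.59 and -0.26 to -0.08 in that order. Genes called ran from 10 to 68, 415 to 699, 87 to 541, 137 to 1085 and 233 to 913. Injured minus uninjured, the Malat1 share ran from -1.24 to -0.547 points, the Neat1 share from -0.0422 to -0.00727, the ratio from -0.992 to -0.234 and Neat1 detection from -34.0 to -18.7. The Rbpms difference ran from 0.64 to 1.12 for Malat1 and from 0.13 to 0.34 for Neat1. No paired analysis was possible because the replicate numbers of injured retina lie inside pools and tissues share too few numbers; without library as replicate block the Rbpms difference was 1.33 for Malat1 and 0.36 for Neat1.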
